A study of Mus musculus with 8 samples.

Results

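The 10 genes described here are transcription factors of striatal projection neurons: the forkhead genes Foxp1, Foxp2, Foxp4 and Foxo1, the homeobox gene Six3, and the zinc finger genes Bcl11b, Ikzf1, Ikzf2, Zfp503 and Zfhx3. They were chosen by name, with earlier results of these data known. Counts of the 10 genes set beside shares of all probe sets or genes are therefore a description and not a test. Every probe set whose annotation gave only 1 of these symbols was taken. This made 41 probe sets of 10 genes among 34945 single-gene probe sets of 18193 genes. Expression had been measured in mouse telencephalon with Dlx1/2 mutations on oligonucleotide arrays. The 8 arrays form 4 groups of 2: basal ganglia (BG) of the genotype -/-, BG of the genotype +/-, cortex (Ctx) of the genotype -/- and Ctx of the genotype +/-. By these labels the +/- groups carry a Dlx1/2 mutation too, and no wild-type group was analysed here. Strain, age, the number of animals and any pooling are not given in the labels used here. The p-values set each difference between groups against the spread of arrays within groups, and that spread may be only technical.

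The striatum, the main input nucleus of the basal ganglia, consists mostly of GABA-producing projection neurons born in the lateral ganglionic eminence. Transcription factors turned on as these cells leave the cell cycle set their identity, and later separate neurons of the direct pathway, which carry the dopamine receptor Drd1, from those of the indirect pathway, which carry Drd2 and the opioid peptide precursor Penk. Dlx1 and Dlx2 are homeobox factors that act in the same progenitors and young neurons. Several of the 10 genes also have roles elsewhere: Bcl11b and Foxp1 in cortical projection neurons, and Ikzf1 in lymphoid cells.

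The labels were checked first. Dlx1 had a signal of 3.67 and 15.5 in BG -/-, against 1232 and 1237 in BG +/-, and 2.42 and 1.74 in Ctx -/-, against 138 and 137 in Ctx +/-. Dlx2 was likewise lower in every -/- array, but whether its probes or those of Dlx1 fall inside the deletion was not established. The regions matched their names: all 7 cortical glutamatergic markers tested were lower in BG +/- than in Ctx +/-, and 6 of 7 ventral markers were higher. Over all genes 10.7% were lower and 14% higher. A source label that names blood and adrenal medulla conflicts with these tissues. The 4 adrenal medulla markers tested summed to 314 to 453 signal units over all arrays. Th, the rate-limiting enzyme of catecholamine synthesis, was named after its values were seen. It lay at 2.9 to 52.2, so most of that sum came from the other markers. Of the 4, Pnmt passed as higher in BG +/- than in Ctx +/-. The 5 red blood cell markers tested summed to 1456 to 6349 over all arrays, and the share of blood in the samples was not tested. Sex and genotype cannot be told apart in these arrays: Xist was at 2339.9 to 2519 in the -/- arrays and 34.2 to 67.5 in the +/- arrays, and the 3 Y-linked genes tested went the other way.

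The first question was how these genes differed between the genotypes in the basal ganglia. In BG -/-, Foxp1, Zfp503, Six3 and Bcl11b fell, and were between 1.61-fold and 3.54-fold lower on the probe set with the highest mean signal of each gene. Foxp2 and Zfhx3 did not pass the test, and no probe set of the 10 genes rose. Of the 41 probe sets, 37 were bright enough to be tested. Of these 37, 14 fell, 0 rose and 23 did not pass (limma with Benjamini-Hochberg over 31526 probe sets, threshold 0.05). Over all probe sets tested 9.74% passed, with 2.23% lower and 7.5% higher in BG -/-. The median change of the 37 was -0.49 on the log2(signal + 16) scale, beside 0.01 for all probe sets. By the brightest probe set of each gene, 4 of the 10 fell, against 3.05% of all genes, while 4.76% rose and 7.82% passed in all. By the mean of all tested probe sets of a gene, a measure added after the data were seen, Foxp1, Bcl11b, Zfp503 and Foxo1 fell and Ikzf2 rose, against 8.7% of all genes called. Both BG -/- arrays lay below both BG +/- arrays on 24 of the 37 probe sets and above them on 5, against 28.6% and 31.3% of all probe sets, together 60%. All log2 changes below are on this scale, which understates the change of dim probe sets, and are given with their SE.

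Foxp1, which marks projection neurons of both pathways, had the most probe sets and the most calls. Its brightest probe set was at 261 and 285 in BG -/-, against 912 and 932 in BG +/-. These groups lay far apart, and the change was -1.70 ± 0.14 (limma adjusted p = 0.00355). The second-brightest was at 151 and 142 in BG -/-, against 665 and 801 in BG +/-, a change of -2.20 ± 0.13 (limma adjusted p = 0.00165). The next was at 144 and 114 in BG -/-, against 409 and 411 in BG +/-, with a change of -1.56 ± 0.15 (limma adjusted p = 0.00485). In all, 6 of the 8 Foxp1 probe sets fell. The dimmest 2, at -1.39 ± 0.36 and -0.80 ± 0.22, did not pass, although both BG -/- arrays lay below both BG +/- arrays on all 8. In these tissue samples, fewer cells of a type and less RNA per cell cannot be told apart, for Foxp1 as for every gene below.

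Zfp503, also called Nolz1, is a zinc finger protein of the developing striatum. Its brightest probe set was at 289 and 266 in BG -/-, against 1067 and 976 in BG +/-. The change was -1.82 ± 0.29 (limma adjusted p = 0.0166). The other probe set was at 84.9 and 77.2 in BG -/-, against 174 and 195 in BG +/-, and its -1.05 ± 0.27 did not pass (limma adjusted p = 0.0593). Neither probe set overlapped between the genotypes.

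Six3, a homeobox factor of the developing forebrain and eye that is also known from indirect-pathway neurons, was at 148 and 145 in BG -/- on its brightest probe set. In BG +/- the same probe set was at 351 and 369, and the change was -1.21 ± 0.17 (limma adjusted p = 0.0117). The other tested Six3 probe set was dimmer and did not follow it, at 56.2 and 44.1 in BG -/- and 20.1 and 37.8 in BG +/-, with a change of 0.58 ± 0.29 that did not pass (limma adjusted p = 0.241). By the mean of both tested probe sets, the change of Six3 was -0.32 ± 0.16, which did not pass (limma adjusted p = 0.25). One more, at 12.8 and 3.6 in BG -/- and 2.88 and 1.86 in BG +/-, was below the filter.

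Bcl11b, also called Ctip2, is a zinc finger protein needed for the differentiation of striatal projection neurons. All 4 of its probe sets fell. The brightest was at 1671 and 1641 in BG -/-, against 2658 and 2693 in BG +/-, a change of -0.69 ± 0.11 (limma adjusted p = 0.0156). The next was at 783 and 722 in BG -/-, against 1731 and 1419 in BG +/-, a change of -1.04 ± 0.15 (limma adjusted p = 0.0124). The other two changed by -0.58 ± 0.11 and -0.80 ± 0.18. No array of BG -/- reached the lowest BG +/- array on any of the 4.

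For Foxo1 and Foxp4, a single probe set each passed, and not the brightest. Foxo1, a forkhead factor controlled by insulin signalling and present in young striatal neurons, was at 51.7 and 72.7 in BG -/-, against 125 and 113 in BG +/- on the probe set that fell (-0.80 ± 0.17, limma adjusted p = 0.0327). Its brightest probe set was at 131 and 79.8 in BG -/- and 155 and 118 in BG +/-, which overlap, and its -0.35 ± 0.22 did not pass. Foxp4, which can form dimers with Foxp1 and Foxp2, was at 6.16 and 8.42 in BG -/-, against 25.4 and 35.7 in BG +/- on its dimmest probe set (-0.99 ± 0.23, limma adjusted p = 0.0432). Both BG -/- signals lay below the offset of 16. This call was lost with an offset of 64, with no filter, with each array centred on its median and with quantile normalization. The brightest Foxp4 probe set, at 58.8 and 53.7 in BG -/- and 128 and 89.7 in BG +/-, gave -0.77 ± 0.26 and did not pass (limma adjusted p = 0.11). By the mean of its 3 tested probe sets, Foxp4 changed by -0.62 ± 0.19, which did not pass (limma adjusted p = 0.088).

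Foxp2, the forkhead gene whose human counterpart is linked to speech and language, was measured by 6 probe sets and none passed. The brightest was at 539 and 526 in BG -/- and 625 and 559 in BG +/-, a change of -0.15 ± 0.14 with a 95% interval of -0.47 to 0.18. Across the 6 probe sets the change ran from -0.17 to 0.16, and no interval reached beyond -0.55 or 0.53. A fall as large as that of the brightest Foxp1 probe set lay outside all of these intervals. The intervals are those of the fit and are not adjusted for the number of probe sets.

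Zfhx3, a large protein with zinc fingers and homeodomains, gave no call on any of 6 probe sets either. Its brightest was at 525 and 470.4 in BG -/- and 527 and 487 in BG +/-, which overlap, with a change of -0.03 ± 0.17 and an interval of -0.43 to 0.37. The second-brightest was at 211 and 214 in BG -/- and 286 and 279.6 in BG +/-, with -0.39 ± 0.17, which did not pass (limma adjusted p = 0.201). The 6 changes ran from -0.49 to 0.12.

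No probe set of the Ikaros family genes passed. Ikzf2, or Helios, a zinc finger factor of later-born striatal neurons, was at 202 and 171 in BG -/- and 136 and 114 in BG +/- on its brightest probe set. The BG -/- arrays lay above the BG +/- arrays on this probe set and on the next, but their changes of 0.52 ± 0.15 and 0.40 ± 0.14 did not pass (limma adjusted p = 0.0728 and 0.115). By the mean of these 2 probe sets Ikzf2 rose in BG -/-, by 0.46 ± 0.10 (limma adjusted p = 0.0372), and the brightest alone passed as higher in 3 of 17 alternatives. Ikzf1, or Ikaros, known from lymphoid development and from enkephalin-producing striatal neurons, was dim. It was at 49.9 and 16.9 in BG -/- and 23.4 and 40.3 in BG +/-, and the arrays of each genotype lay further apart than the means of the genotypes. The interval of its change, -1.11 to 1.08, leaves large changes in either direction undetectable at this signal. None of the 7 leukocyte and microglia markers tested passed in BG, and they summed to 1070 to 1094 in BG -/- and 1218 to 1364 in BG +/-.

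**Figure D1:**
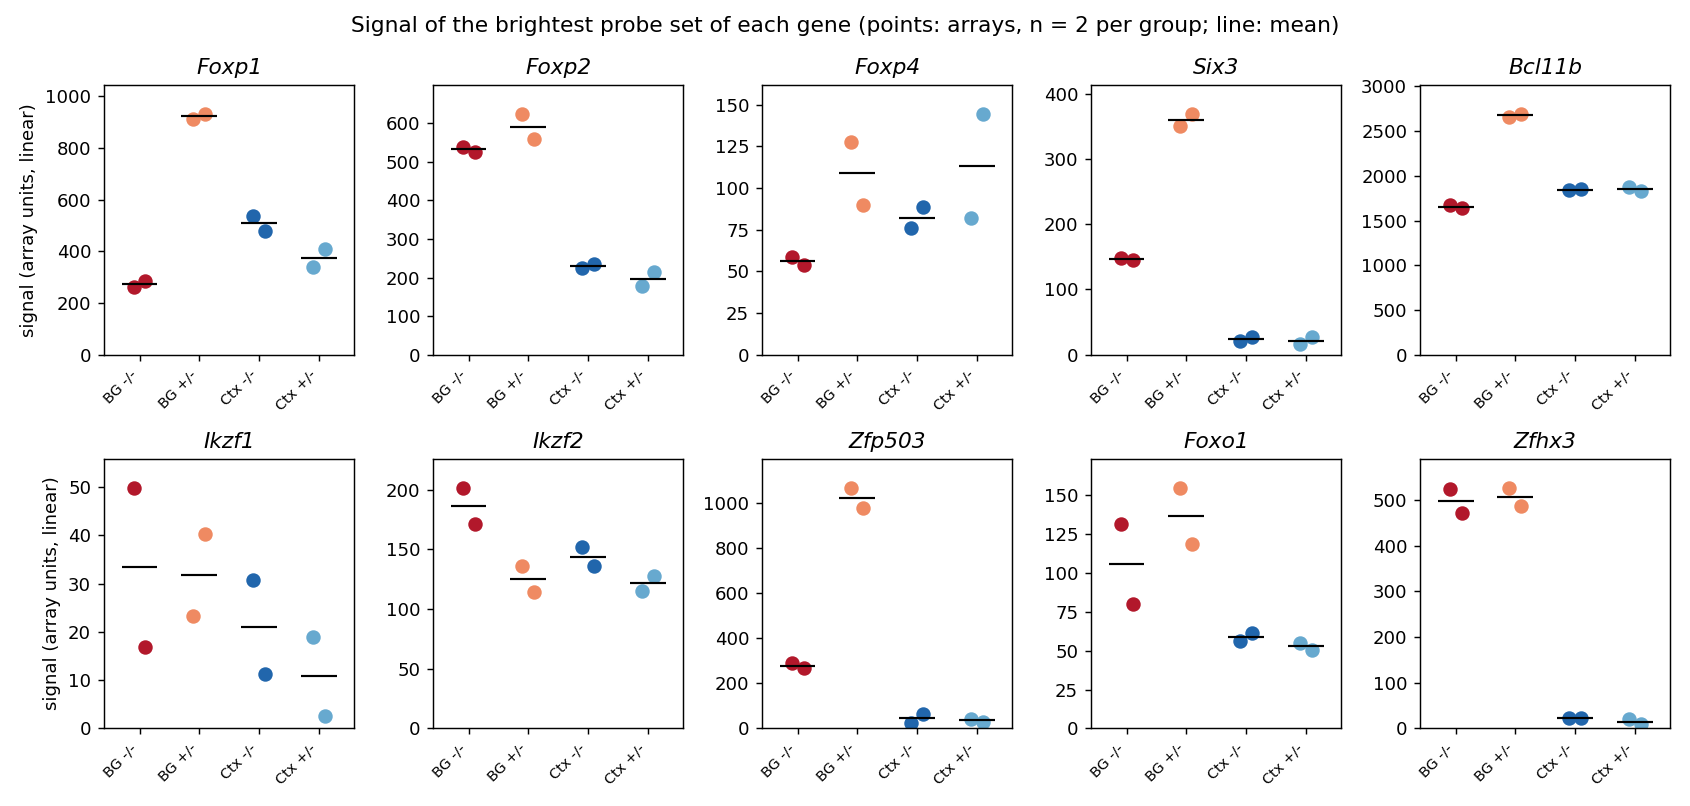
Signal on a linear axis in array units for the probe set with the highest mean signal of each of the 10 genes, in BG -/-, BG +/-, Ctx -/- and Ctx +/-. Points are single arrays (n = 2 per group) and lines are means. Foxp1, Six3, Bcl11b and Zfp503 are lower in BG -/- than in BG +/-, while Foxp2 and Zfhx3 are high in both BG groups.

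The number of calls depended on the arrays included. Leaving out BG -/- replicate 2, BG -/- replicate 3, BG +/- replicate 2 or BG +/- replicate 3 left 3, 5, 4 and 5 member probe sets that fell, and leaving out either Ctx -/- array left 9. Over all probe sets, 0.0856%, 0.0952%, 0.162% and 0.225% then fell without each of these BG arrays in that order, and 0.66% without either Ctx -/- array, against 2.23% with all arrays. The 3 brightest Foxp1 probe sets stayed past the threshold in all 17 alternatives, with adjusted p of at most 0.0488 (limma). The brightest probe sets of Six3, Zfp503 and Bcl11b lost their call whenever any 1 BG array was left out, and over all alternatives their limma adjusted p reached 0.0808, 0.0955 and 0.0993.

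Markers of other cells moved with the genotype in BG as well. The 7 ventral telencephalon markers summed to 2446 to 2540.1 in BG -/-, against 3745 to 4093 in BG +/-, and 2 of 7 fell, the homeobox genes Dlx5 and Dlx6. The 5 red blood cell markers tested summed to 3156 to 3303 in BG -/-, against 6056 to 6349 in BG +/-, and 1 of 5 fell, the embryonic globin Hbb-y. The 7 cortical markers summed to 1532 to 1653 in BG -/-, against 1412 to 1434 in BG +/-, and 1 of 7 passed, Fezf2, which fell. The 5 endothelial markers summed to 368 to 402 in BG -/-, against 473 to 484 in BG +/-, and 0 of 5 passed. Over all genes 3.05% fell, 4.76% rose and 7.82% passed in BG. No marker was listed at 0, and the part of these other cells in the changes of the 10 genes was not tested.

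The promoters of the 4 genes whose brightest probe set fell are shown because these genes were lower together, so that the letters beside their start sites can be compared. For Foxp1, the window with the most core matches of its 3 was chosen. Each window runs 5′ to 3′ from 250 bases before to 50 bases after a RefSeq start site of GRCm38.p6. Capitals mark every TAAT or, on the other strand, ATTA, the core letters that homeodomain proteins such as DLX1 and DLX2 can bind. Which start sites these tissues use was not measured.
Foxp1 chr6:99266466-99266765 minus strand: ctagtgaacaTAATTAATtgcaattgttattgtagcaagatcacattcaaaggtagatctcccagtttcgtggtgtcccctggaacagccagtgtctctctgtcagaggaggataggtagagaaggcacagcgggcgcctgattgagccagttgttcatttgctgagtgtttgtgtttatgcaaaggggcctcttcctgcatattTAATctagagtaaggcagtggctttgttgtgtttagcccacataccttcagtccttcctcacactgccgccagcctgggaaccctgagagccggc
Zfp503 chr14:21989552-21989851 minus strand: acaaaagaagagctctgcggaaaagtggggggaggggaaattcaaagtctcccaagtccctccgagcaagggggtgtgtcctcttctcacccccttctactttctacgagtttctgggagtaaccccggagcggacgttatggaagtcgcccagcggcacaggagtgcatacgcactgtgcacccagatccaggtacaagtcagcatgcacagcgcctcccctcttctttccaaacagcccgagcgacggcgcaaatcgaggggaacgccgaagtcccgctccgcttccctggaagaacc
Six3 chr17:85620584-85620883 plus strand: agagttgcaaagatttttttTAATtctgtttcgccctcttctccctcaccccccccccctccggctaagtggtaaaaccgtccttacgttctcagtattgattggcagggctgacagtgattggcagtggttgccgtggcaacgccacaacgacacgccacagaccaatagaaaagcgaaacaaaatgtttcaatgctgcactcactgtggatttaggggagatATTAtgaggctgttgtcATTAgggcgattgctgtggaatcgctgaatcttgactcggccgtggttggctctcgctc
Bcl11b chr12:108003365-108003664 minus strand: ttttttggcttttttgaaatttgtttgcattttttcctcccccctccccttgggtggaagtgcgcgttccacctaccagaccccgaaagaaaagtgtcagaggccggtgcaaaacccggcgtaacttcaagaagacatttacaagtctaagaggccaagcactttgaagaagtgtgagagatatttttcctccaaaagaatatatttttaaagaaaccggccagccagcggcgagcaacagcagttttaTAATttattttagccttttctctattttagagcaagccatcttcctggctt

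RefSeq windows were found for 8 of the 10 genes, 11 windows in all, of which 3 belong to Foxp1. The core stands in 7 of the 11 windows (63.6%), against 58% of all 32851 promoter windows. The Foxp1 window shown, with 4 core matches, is the 1 of 11 that also holds the longer palindrome TAATTA, which contains both core forms and so overlaps them, and which stands in 5.29% of all windows. The other Foxp1 windows had 1 and 0 core matches and no TAATTA. The Six3 window had 3 core matches, that of Bcl11b had 1 and that of Zfp503 had 0. Windows were also found for 4 genes whose brightest probe set did not pass in BG. That of Foxo1 had 2 core matches, that of Foxp4 had 1, those of Ikzf1 had 1 and 0, and that of Zfhx3 had 0. A match is a description of these letters and says nothing of binding.

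The same comparison was made in the cortex. None of the 37 member probe sets passed in Ctx by limma, where 0.225% of all probe sets did (0.0476% higher and 0.178% lower in Ctx -/-), and 4 had an unadjusted p under 0.05. By the brightest probe set of each gene, 0 of 10 passed, against 0.022% of all genes higher, 0.183% lower and 0.205% in all. Both Ctx -/- arrays lay above both Ctx +/- arrays on 9 of the 37 and below them on 8, against 18.6% and 20.9% of all probe sets, together 39.4%. Foxp1 was at 537 and 479 in Ctx -/- and 339 and 410.2 in Ctx +/- on its brightest probe set, so that its arrays stood higher in Ctx -/-, by 0.43 ± 0.14, which did not pass (limma adjusted p = 0.393). Across its 8 probe sets the Ctx change ran from -0.01 to 0.43. Bcl11b was at 1843 and 1849 in Ctx -/- and 1872 and 1827 in Ctx +/-, which overlap, and the interval of its change was -0.26 to 0.26. Its second probe set, at 846 and 916 in Ctx -/- and 1170.4 and 1339 in Ctx +/-, gave -0.50 ± 0.15 (limma adjusted p = 0.352).

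None of the remaining genes passed in cortex, and some were dim there. The 3 Foxp4 changes ran from -0.44 to -0.36. That of Ikzf1 was 0.49, with a wide interval of -0.61 to 1.58. Foxp2 was at 225 and 235 in Ctx -/- and 178 and 214 in Ctx +/-. Six3 was at 20.5 and 27.6 in Ctx -/- and 16.5 and 26.9 in Ctx +/-, and Zfhx3 at 22.8 and 22.4 in Ctx -/- and 19.9 and 10.4 in Ctx +/-, near the mean signal of 16.3 below which probe sets were not tested. The lowest Ctx change of the 37 was that of the second Zfp503 probe set, at 3.19 and 0.746 in Ctx -/- and 36.3 and 12.5 in Ctx +/-, with -1.11 ± 0.27 (limma adjusted p = 0.294). The brighter Zfp503 probe set, at 25.6 and 63.8 in Ctx -/- and 40.7 and 30.2 in Ctx +/-, did not share this and gave 0.17 ± 0.29.

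Markers of other cells differed between the cortical groups. The 4 choroid plexus markers summed to 17.4 to 71.4 in Ctx -/-, against 11992 to 13898 in Ctx +/-, and 2 of 4 fell, Ttr, which encodes the transport protein transthyretin, and Kcne2. The 7 ventral telencephalon markers summed to 54 to 70.4 in Ctx -/-, against 747 to 755 in Ctx +/-, and 3 of 7 fell, the GABA-synthesis genes Gad1 and Gad2 and the interneuron factor Lhx6. Over all genes 0.183% fell in Ctx. The part of these other cells in the cortical values of the 10 genes was not tested.

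**Figure D2:**
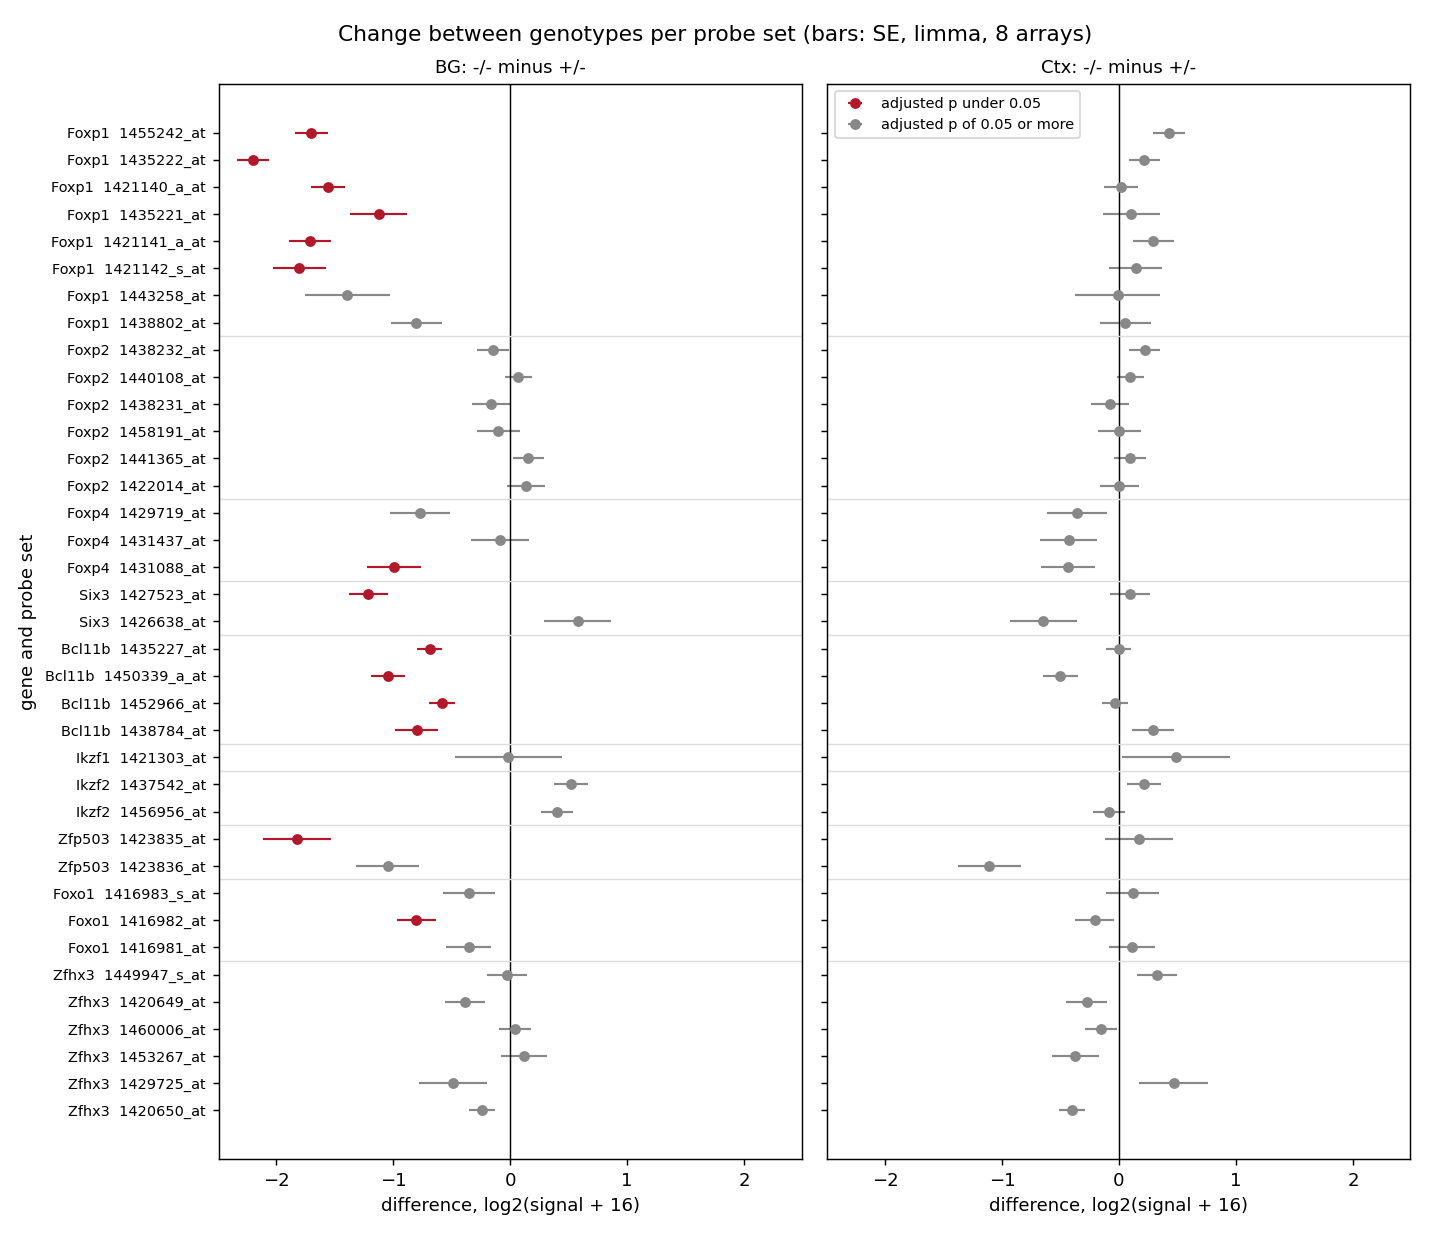
Genotype change, -/- minus +/-, on the log2(signal + 16) scale for each of the 37 tested probe sets, in BG on the left and in Ctx on the right. Points are limma estimates, bars are SE, and red points passed an adjusted p of 0.05. The 14 red points are all negative and all in BG, and none of the 37 is red in Ctx.

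Whether the change in BG differed from that in Ctx was tested directly. For Foxp1 it did on 4 of 8 probe sets, with the change in BG less that in Ctx at -2.13 ± 0.20 on the brightest (limma adjusted p = 0.0253) and -2.42 ± 0.19 on the second (limma adjusted p = 0.0211). These 4 were the only calls among the 37 probe sets, while 0.574% of all probe sets passed, 0.517% with a higher and 0.0571% with a lower change in BG. By the brightest probe set, Foxp1 was the 1 of 10 genes that passed, against 0.338% of all genes, 0.272% higher and 0.066% lower. The differences for Zfp503 at -1.99 ± 0.41, Six3 at -1.31 ± 0.24 and Bcl11b at -0.68 ± 0.15 on their brightest probe sets did not pass (limma adjusted p = 0.0879, 0.0726 and 0.103). The other tested probe sets of Zfp503 and Six3 did not share these values. They gave 0.06 ± 0.38 for Zfp503 and 1.23 ± 0.40 for Six3, and neither passed. All 4 Bcl11b probe sets were negative, from -1.09 to -0.54, and none passed. A change particular to BG was thus not shown for these 3. All 4 Foxp1 calls were lost with an offset of 1 and with the replicate number as a block. Under these settings 0.019% and 0.0127% of all probe sets passed. The calls were also lost when any 1 of the 8 arrays was left out, as were nearly all such calls over all probe sets. On the brightest Foxp1 probe set the difference ran from -2.29 to -1.94 over 16 alternatives.

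The genes were also compared between the regions. In the +/- genotype, 24 of the 37 probe sets were higher in BG than in Ctx, 0 were lower and 13 did not pass, while over all probe sets 23.8% passed, 11.1% higher and 12.8% lower. By the brightest probe set 7 of 10 genes were higher, against 14% of all genes higher, 10.7% lower and 24.8% in all. The 7 are Foxp1, Foxp2, Six3, Bcl11b, Zfp503, Foxo1 and Zfhx3. Both BG +/- arrays lay above both Ctx +/- arrays on 29 of the 37 and below them on 1, against 33.6% and 28.9% of all probe sets, together 62.5%. The choroid plexus markers summed to 126 to 129.99 in BG +/-, against 11992 to 13898 in Ctx +/-, with Ttr and Kcne2 lower in BG +/-, and their part in these regional differences was not tested.

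On the brightest probe sets, the widest gaps were those of Zfp503, Zfhx3 and Six3. Zfp503 was at 1067 and 976 in BG +/-, against 40.7 and 30.2 in Ctx +/-, a difference of 4.34 ± 0.29 (limma adjusted p = 0.000442). Zfhx3 was at 527 and 487 in BG +/-, against 19.9 and 10.4 in Ctx +/-, a difference of 4.09 ± 0.17 (limma adjusted p = 0.00015), and all 6 of its probe sets were higher. Six3 was at 351 and 369 in BG +/-, against 16.5 and 26.9 in Ctx +/-, a difference of 3.33 ± 0.17 (limma adjusted p = 0.000255). The other tested Six3 probe set did not share this gap. It was at 20.1 and 37.8 in BG +/- and 19.5 and 20.3 in Ctx +/-, which overlap. Its difference of 0.30 ± 0.29 did not pass (limma adjusted p = 0.484). On the brightest probe sets, Six3 and Zfhx3 lay below the median signal of all 4 Ctx arrays, 37.9 to 45.6. Zfp503 lay below it on 3 of the 4 and above it on Ctx -/- replicate 3.

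Foxp1, Foxp2 and Bcl11b had clear signals in both regions on their brightest probe sets. Foxp2 was at 625 and 559 in BG +/-, against 178 and 214 in Ctx +/-, a difference of 1.52 ± 0.14, and 5 of its 6 probe sets were higher. Foxp1 was at 912 and 932 in BG +/-, against 339 and 410.2 in Ctx +/-, a difference of 1.27 ± 0.14, and 6 of its 8 probe sets were higher. Bcl11b was at 2658 and 2693 in BG +/-, against 1872 and 1827 in Ctx +/-, a difference of 0.53 ± 0.11. This was the smallest difference among the brightest probe sets that passed, and its call was lost without BG +/- replicate 2, without BG +/- replicate 3, with only the groups compared or with each array centred on its median, with limma adjusted p of up to 0.0829 over the alternatives. Foxp4 at -0.03 ± 0.26, Ikzf2 at 0.03 ± 0.15 and Ikzf1 at 0.88 ± 0.46 did not pass.

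In the -/- genotype the regional pattern of the 10 genes was mixed. Of the 37 probe sets, 14 were higher in BG -/- than in Ctx -/-, 5 were lower and 18 did not pass, while over all probe sets 17.2% passed, 10.7% higher and 6.59% lower. By the brightest probe set 4 of 10 genes were higher and 1 lower, against 11.4% and 7.25% of all genes, together 18.7%. Both BG -/- arrays lay above both Ctx -/- arrays on 20 of the 37 and below them on 14, against 39.3% and 28.6% of all probe sets, together 67.9%. The regional comparisons share arrays with the genotype comparisons, so they show the same measurements from another side. The choroid plexus markers summed to 82.9 to 129 in BG -/-, against 17.4 to 71.4 in Ctx -/-, and 0 of 4 passed.

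Foxp1 was lower in BG here, at 261 and 285 in BG -/-, against 537 and 479 in Ctx -/-, a difference of -0.86 ± 0.14 (limma adjusted p = 0.01). On all 8 of its probe sets both BG -/- arrays lay below both Ctx -/- arrays, and 4 of the 8 passed. The call of the brightest was lost without BG -/- replicate 2 or without Ctx -/- replicate 2, with limma adjusted p of up to 0.068 over the alternatives, while the second-brightest kept its call in all 17. The 5 lower calls among the 37 became 2, 4, 2 and 2 without BG -/- replicate 2, BG -/- replicate 3, BG +/- replicate 2 and BG +/- replicate 3, and 1 and 2 without Ctx -/- replicate 2 and Ctx -/- replicate 3. Over all probe sets the lower share was then 2.29%, 2.46%, 5.5%, 5.5%, 2.02% and 2.25% in that order. With each array centred on its median there were 9 lower calls, and 17.1% of all probe sets were lower.

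Bcl11b was at 1671 and 1641 in BG -/- and 1843 and 1849 in Ctx -/-, and its -0.16 ± 0.11 did not pass (limma adjusted p = 0.349), while 1 dimmer probe set, at -0.41 ± 0.11, was just past the threshold (limma adjusted p = 0.0499). Zfp503 was at 289 and 266 in BG -/-, against 25.6 and 63.8 in Ctx -/-, a difference of 2.35 ± 0.29. Six3 was at 148 and 145 in BG -/-, against 20.5 and 27.6 in Ctx -/-, a difference of 2.02 ± 0.17. Zfhx3 at 3.73 ± 0.17 and Foxp2 at 1.16 ± 0.14 were higher in BG -/- as well, on their brightest probe sets.

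**Figure D3:**
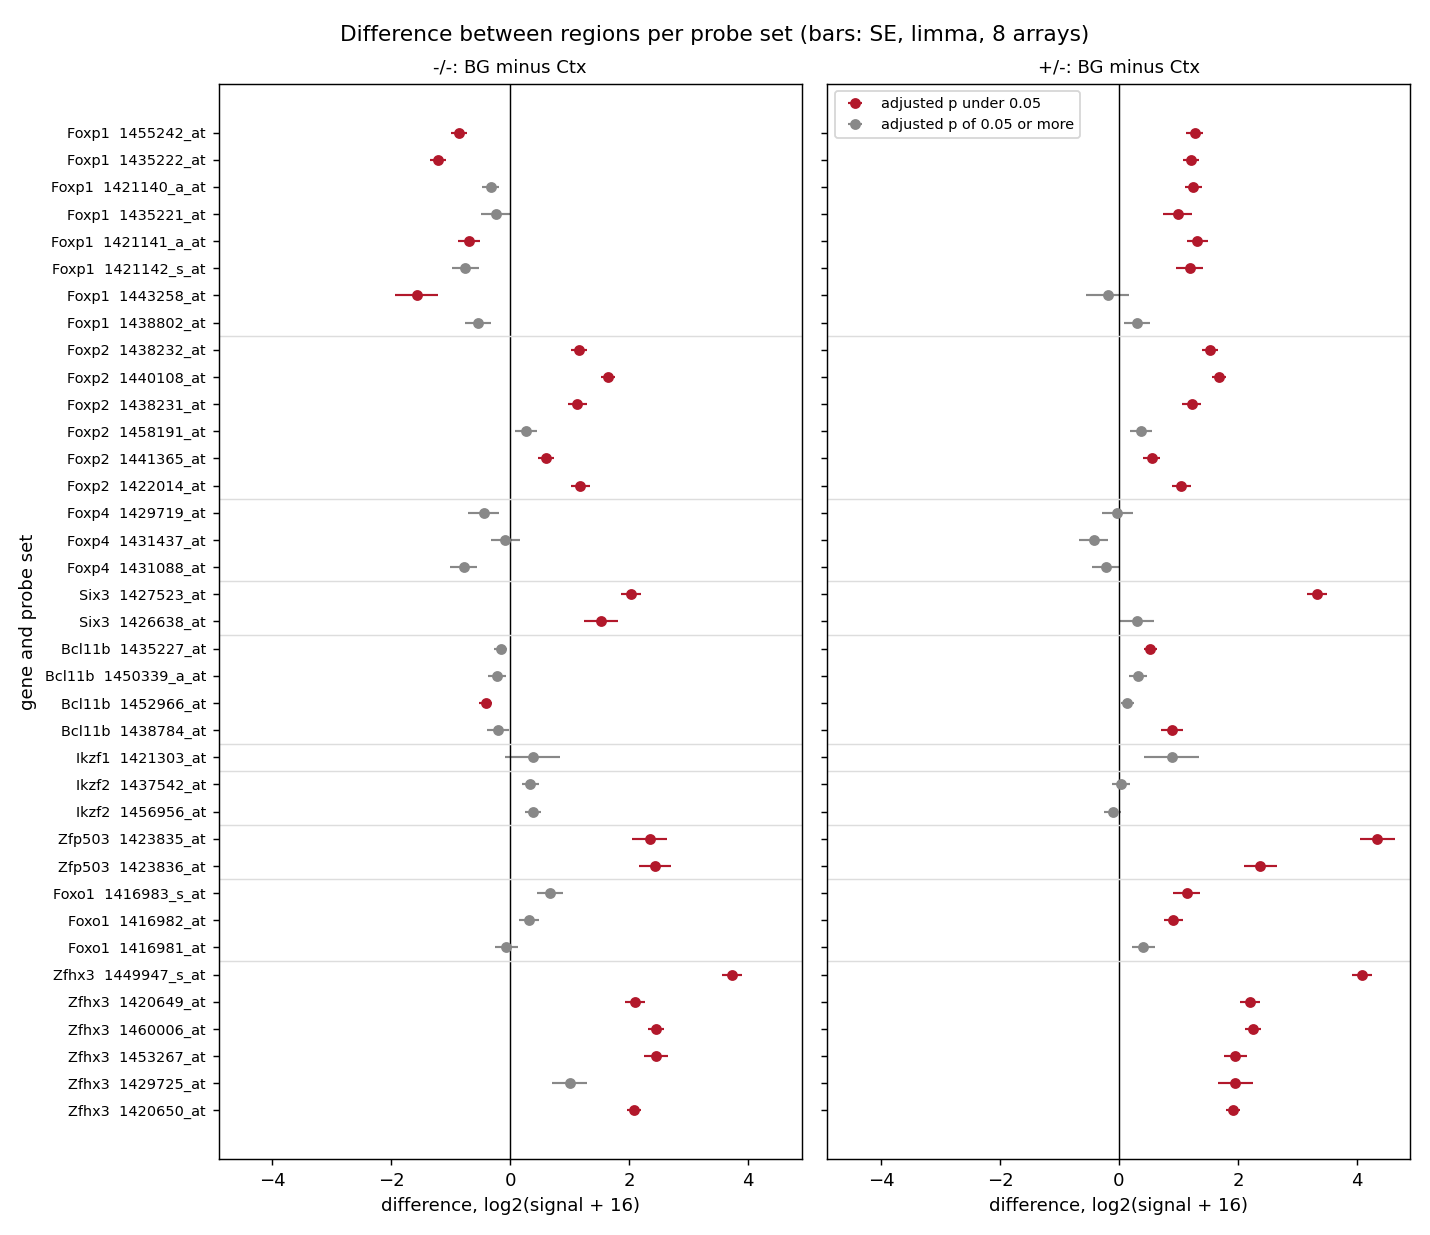
Difference between regions, BG minus Ctx, on the log2(signal + 16) scale for each of the 37 tested probe sets, in the -/- genotype on the left and the +/- genotype on the right. Points are limma estimates, bars are SE, and red points passed an adjusted p of 0.05. Foxp1 is left of 0 on all 8 probe sets in -/- and right of 0 on 7 of 8 in +/-, whereas Zfhx3 is right of 0 in both.

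Ordered by level, the brightest Foxp1 probe set stood at 922 ± 14.4 in BG +/-, 508 ± 41.4 in Ctx -/-, 375 ± 50.2 in Ctx +/- and 273 ± 17.1 in BG -/- (mean ± SD, n = 2 each). The neighbours Ctx -/- and Ctx +/- did not pass the test. The other neighbours in this order differ in both region and genotype and were not compared by a test. For Bcl11b the order was BG +/- at 2675 ± 24.4, Ctx +/- at 1849.7 ± 31.7, Ctx -/- at 1846 ± 4.23 and BG -/- at 1656 ± 21.2. Neither the neighbours Ctx +/- and Ctx -/- nor Ctx -/- and BG -/- passed. For Zfp503 it was BG +/- at 1022 ± 64, BG -/- at 277 ± 16, Ctx -/- at 44.7 ± 27 and Ctx +/- at 35.4 ± 7.41, and the cortical groups did not pass.

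The genes closest in pattern were found by the root mean square difference of mean-centred log2 signals over the 8 arrays, as a description only. Those closest to Six3 were Egr3 at 0.22, Klhl13 at 0.33, Penk at 0.36, Calb1 at 0.39 and Ebf1 at 0.40. Egr3 was at 52.4 and 57.5 in BG -/- against 146 and 153 in BG +/-. Those closest to Foxp1 were Unc13d at 0.26, Sigirr at 0.27, Pou3f1 at 0.27, Pdlim1 at 0.30 and Syt6 at 0.31. Those closest to Bcl11b were Scand1, Pop7, Slirp, Timm8b and Psmb1, at 0.04 to 0.06. Psmb1, a proteasome subunit, was at 1522 and 1616 in BG -/- against 2274 and 2376 in BG +/-.

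Other striatal genes were read beside the 10, each by its brightest probe set. Of 8 further striatal transcription factors, 7 were tested in BG. The retinoid receptors Rxrg and Rarb and the direct-pathway factor Ebf1 fell, 0 rose and 4 did not pass, with a median change of -0.59 beside -0.08 for all genes. Over all genes 3.05% fell and 4.76% rose. Rarb was at 37.3 and 39.5 in BG -/-, against 269.7 and 271 in BG +/-, a change of -2.40 ± 0.12 (limma adjusted p = 0.000822). Ebf1 was at 251 and 240.2 in BG -/-, against 620.3 and 576 in BG +/-, a change of -1.23 ± 0.12 (limma adjusted p = 0.00487). Isl1, a homeobox factor of direct-pathway and cholinergic neurons, was at 1339 and 1460.1 in BG -/- and 1499 and 1629 in BG +/- and did not pass.

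Of 25 effector genes of projection neurons, 18 were tested in BG: 2 fell, 1 rose and 15 did not pass, with a median of -0.54. Over all genes 3.05% fell, 4.76% rose and 7.82% passed in all. The dopamine receptor Drd1 was at 52.3 and 36.2 in BG -/-, against 123 and 126 in BG +/-, a change of -1.24 ± 0.18 (limma adjusted p = 0.0128). Penk was at 88.6 and 75.9 in BG -/-, against 185 and 168 in BG +/-, a change of -0.97 ± 0.14 (limma adjusted p = 0.0121). Arpp21, which encodes a phosphoprotein regulated by cyclic AMP, rose, at 342 and 328 in BG -/-, against 81.6 and 71.9 in BG +/- (1.92 ± 0.15, limma adjusted p = 0.00315). Tac1, the substance P precursor of direct-pathway neurons, was at 653 and 387 in BG -/- and 918 and 884 in BG +/- and did not pass. The 6 calls of both lists in BG became 3, 2, 3 and 3 without BG -/- replicate 2, BG -/- replicate 3, BG +/- replicate 2 and BG +/- replicate 3. In Ctx 0 of these 25 tested genes passed by limma, against 0.205% of all genes. In the +/- genotype 6 of the 7 factors were higher in BG than in Ctx and 1, Mef2c, was lower. Of the 18 effectors 8 were higher and 3 lower, and of all genes 14% were higher and 10.7% lower.

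**Figure D4:**
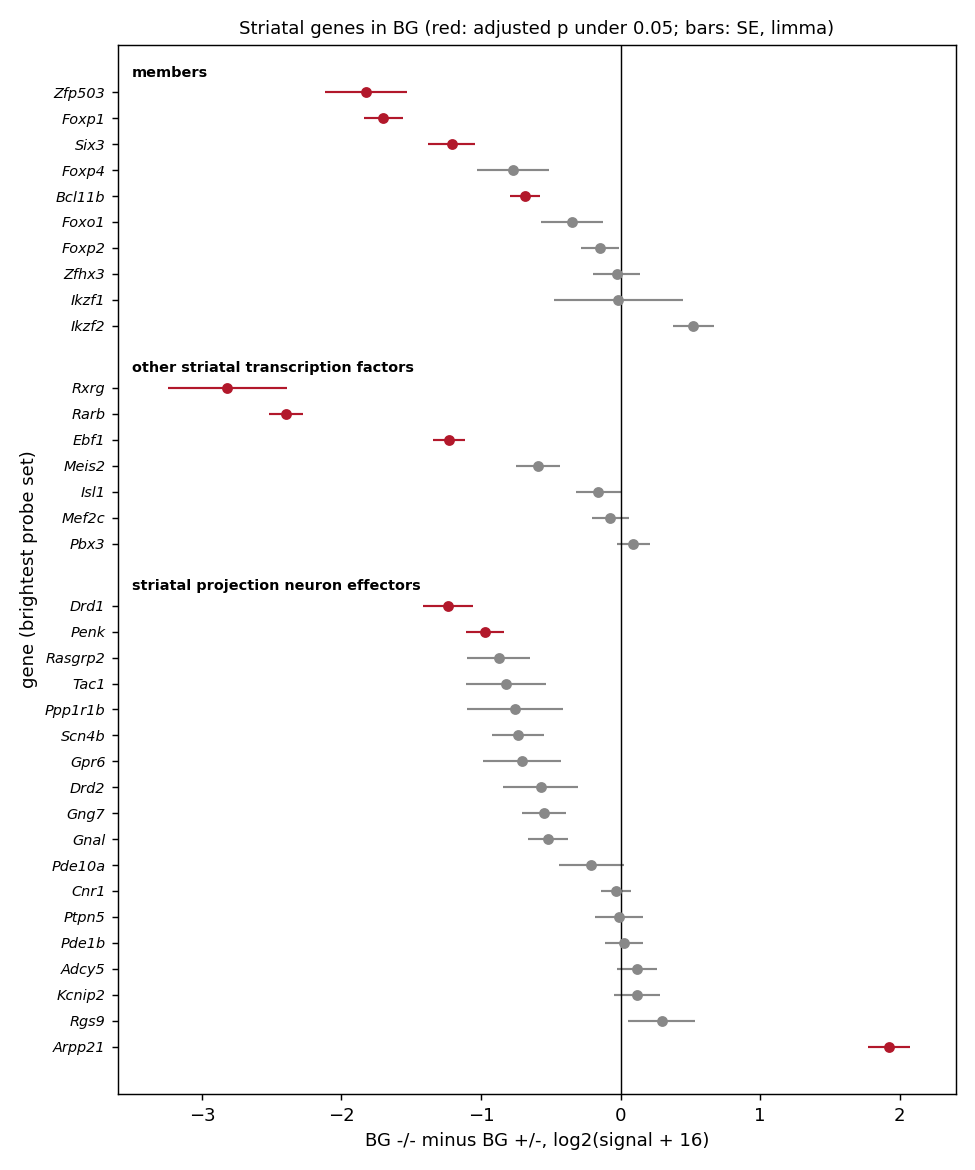
Change in BG, -/- minus +/-, on the log2(signal + 16) scale for the 10 genes, 7 other striatal transcription factors and 18 effector genes, each by its brightest probe set. Points are limma estimates, bars are SE, and red points passed an adjusted p of 0.05. Zfp503, Foxp1, Six3, Bcl11b, Rxrg, Rarb, Ebf1, Drd1 and Penk are the red points left of 0, and Arpp21 is the single one to the right.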

How the data were processed

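Per the labels, total RNA of basal ganglia or cortex was measured on 8 arrays. The authors deposited intensity values, not on a log scale, for 45101 probe sets. On every array their mean with 2% trimmed at each end was 150.0, so they had been scaled before deposit. The software is not given in the sources used here. After 64 controls were left out, signals were analysed as log2(signal + 16), and the lowest 30% by mean were not tested (a mean near 16.3 signal units), which kept 31526 probe sets and 37 of the 41 of the 10 genes. The 4 not kept, 1 each of Six3, Ikzf1, Ikzf2 and Foxo1, had signals of 0.653 to 76.9.

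Means of the 4 groups were estimated with limma 3.58.1 (R 4.3.3; lmFit and eBayes), which pools the spread over all groups (4 residual and 2.76 prior degrees of freedom). Tests were two-sided and adjusted by Benjamini-Hochberg. The number of arrays limits the precision. The fit was tested on simulated data. Replicate numbers 2 and 3 recur in each group, but the labels do not say whether they pair the samples, and the main fit used no pairing. A gene in a list is represented by its tested single-gene probe set with the highest mean log2, over 13627 genes. Of the 33 other striatal genes listed, 25 were tested. Named were all 10 genes, Dlx1 and Dlx2, list genes that passed in some comparison, and the 5 genes most like Foxp1, Six3 and Bcl11b, leaving out clone names. Th was named as the defining marker of its list after its values were seen. The 10 genes and the lists were chosen with earlier results of these data known. The mean of all probe sets of the 10 genes was added after the data were seen. Alternatives changed the offset, filter, scaling, variance model and arrays used. Gene names come from the platform annotation, and promoters from a RefSeq table of GRCm38.p6. Probe sets of a gene can detect different transcripts.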

Additional observations from a re-analysis of the deposited data

Results flagged for a closer look

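The genotype change of Foxp1 differed between BG and Ctx on 4 probe sets by the test of the difference itself. The difference was -2.13 on the brightest probe set, where the change was -1.70 ± 0.14 in BG and 0.43 ± 0.14 in Ctx. It was -2.42 on the second, with -2.20 ± 0.13 in BG and 0.22 ± 0.13 in Ctx. It was -1.57 on the next, with -1.56 ± 0.15 in BG and 0.02 ± 0.15 in Ctx, and -2.00 on the last of the 4, with -1.71 ± 0.18 in BG and 0.29 ± 0.18 in Ctx (limma, log2 scale, SE). On these 4 probe sets both BG -/- arrays lay below both BG +/- arrays, as on 28.6% of all probe sets. These 4 were picked by their calls, so this adds no separate support.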

How the results depend on the processing

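No call of a member probe set changed sign under any of 17 alternatives. The count of member probe sets called in BG, 14, was 9 with no filter (3.91% of all probe sets called) and 3 to 15 with 1 array left out. With an offset of 64, the lowest 50% left out or the intensity trend it was 17, 17 and 19, of which 1, of Ikzf2, was higher in each, with 15.8%, 21.3% and 18.7% of all probe sets called, against 9.74%. For the change in BG less that in Ctx, the 4 calls became 0 with an offset of 1, 9 with an offset of 64 and 1 with no filter. They became 9 with the lowest 50% left out and 11 with the intensity trend. With any 1 array left out they were lost, as were nearly all such calls over all probe sets. Over all probe sets 0.019%, 2.89%, 0.0222%, 4.59% and 5.76% were called under the first 5 of these, against 0.574%, and 0.0127% with the replicate block. The count of other striatal genes called in BG, 6, was 11 with an offset of 64, 10 with quantile normalization, 10 with the intensity trend and 2 to 8 with 1 array left out. A filter changes the number of probe sets over which p is adjusted, and the cause of the other shifts was not tested. The other total counts of calls, those in Ctx, those between regions and those of genes by the mean of all their probe sets, stayed within 1.5 times under every alternative run. Of the total in -/-, the 5 lower calls became 9 with each array centred on its median, 3 with an offset of 1 and 3 with no filter. With the replicate number as a block, the member counts were 10 in BG, 0 in Ctx and 0 for the change in BG less that in Ctx. They were 24 and 19 between regions in +/- and -/-, and the other striatal counts were 6, 0 and 17. Replicate differences correlated at -0.03 to 0.02 between groups. With 1 such difference per group, this cannot show whether a shared number marks shared animals or a shared batch. Centring each array on its median moved the median difference of all probe sets between regions in -/- to -0.21, against 0.08, and the share of higher calls to 26.5%, against 61.8%. In +/- that share moved to 31.6%, against 46.4%, and for the change in BG less that in Ctx to 67.9%, against 90.1%. In -/- it was 50.4% with quantile normalization. Values of probe sets near 16 are limited by the offset.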

Other observations

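Of 14 relatives of the 10 genes, 10 were tested, and 1 passed between the genotypes in BG, where 7.82% of all genes passed. Ikzf5, an Ikaros family gene, rose, at 374 and 360.3 in BG -/-, against 238 and 183 in BG +/- (0.77 ± 0.16, limma adjusted p = 0.0303). Bcl11a, the paralog of Bcl11b, was at 996 and 906 in BG -/- and 1412 and 1326 in BG +/-, and its -0.52 ± 0.19 did not pass (limma adjusted p = 0.136). Zfhx4, the paralog of Zfhx3, was at 340.1 and 319 in BG -/- and 251 and 269 in BG +/- and did not pass, while it was higher in BG than in Ctx in both genotypes, by 1.07 ± 0.12 in -/- (limma adjusted p = 0.00227) and 0.69 ± 0.12 in +/- (limma adjusted p = 0.00842). Of the 10 relatives 0 passed in Ctx (limma), where 0.205% of all genes passed.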
